A study of Mus musculus with 12 samples.

Results

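Chemokine transcripts were examined in CD8+ T cells sorted from mouse tumors by a reporter of A2AR, an adenosine receptor, without and with PD-L1 blockade. The 9 genes were Ccl1, Ccl3, Ccl4, Ccl5, Ccl9, Xcl1, Cxcl9, Cxcl10 and Cxcl16, taken by symbol from a table of 52636 gene identifiers. All 9 passed the filter on low counts, which left 14173 genes for testing over all 12 libraries. The mice carried the A2AR eGFP reporter, a bacterial artificial chromosome transgene, Tg(Adora2a-EGFP)EP141Gsat, on a C57BL/6 background, in which EGFP sits at the start codon of Adora2a and so reports that gene from its own regulatory region. Females of 6 to 16 weeks bore AT3ova tumors, a mammary carcinoma line made to express ovalbumin, from 500000 cells placed under the skin. The groups were CD8+GFP- and CD8+GFP+ cells of non-treated mice and CD8+GFP- and CD8+GFP+ cells of mice given anti-PD-L1 (clone 10F.9G2) on days 14 and 18, all taken on day 21, with 3 libraries per group and 3 mice pooled in each library. The labels do not say whether non-treated mice received a control antibody, and they tie no GFP+ library to a GFP- library of the same tumors. The legends of the study count fewer GFP+ libraries than were deposited and do not say which were left out, so which libraries its own comparisons rest on is not known here.

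Chemokines are small secreted proteins that direct leukocyte movement through G protein-coupled receptors. Activated CD8+ T cells are known for secreting CCL3, CCL4 and CCL5, which attract T cells and monocytes, and XCL1, which draws cross-presenting dendritic cells that carry XCR1. CXCL9 and CXCL10 are induced by interferon-gamma and attract CXCR3+ T cells, and CXCL16 is the ligand of CXCR6. Most of these ligands are also made by macrophages or dendritic cells, whose markers were therefore measured in the same libraries.

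The 12 libraries held 11292699 to 19023900 counted reads. The libraries labelled KT13 (non-treated GFP+) and KT21 (anti-PD-L1 GFP+) stood apart, with a median Spearman correlation with the other libraries of 0.941 and 0.935, against 0.967 to 0.977 for the other 10. They also had the smallest totals, so the tests that the results turn on are given with all 12 libraries and without these 2; no source ties them to the libraries that the study left out. Small nuclear RNA genes took 0.397 to 0.532% of counted reads in the 6 non-treated and 0.195 to 0.302% in the 6 treated libraries, so this share separated the treatments completely, and its part in the differences with treatment was not tested. Adora2a, the gene that the reporter reports, was at 19.7 to 24.3 CPM (counts scaled to library size, normalized by TMM) in non-treated GFP- libraries and at 60.2 to 67.3 in non-treated GFP+ libraries, and at 26.0 to 34.6 and 66.3 to 111 in those groups after anti-PD-L1. The 6 T cell marker genes, Cd8a among them, summed to 3022 to 5091 CPM. Of 14 macrophage markers 13 passed the filter, and their sum was 161 to 237 CPM in non-treated GFP-, 214 to 299 in non-treated GFP+, 82.4 to 138 in anti-PD-L1 GFP- and 89.5 to 178 in anti-PD-L1 GFP+ libraries. Macrophage marker transcripts were thus present in every sorted pool, and their sum was lower in all treated libraries than in the matching non-treated ones. Among the 14 markers, 1 was at 0 counts in all anti-PD-L1 GFP+ libraries. The 5 fibroblast markers summed to 4.35 to 42.2 CPM in non-treated GFP- and 12.6 to 64.3 in non-treated GFP+ libraries. After anti-PD-L1 these sums were 0.214 to 10.5 in GFP- and 0.444 to 12.2 in GFP+ libraries. For 6 tumor epithelial markers the sums were 232 to 324, 210 to 302, 201 to 305 and 135 to 198 CPM in the same order. The part of both in the differences with treatment was not tested. The libraries read only the 3′ end of each mRNA, so CPM were not divided by length and levels are not compared between genes. In pooled cells, fewer cells making a transcript and less of it per cell cannot be told apart.

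Of the 9 genes 6 lie on chromosome 11 (GRCm38 with the GENCODE vM21 annotation): Ccl5 at chr11:83525778-83530518, Ccl9 at chr11:83572919-83578636, Ccl3 at chr11:83647844-83649355 (all on the minus strand) and Ccl4 at chr11:83662584-83664683 (plus strand) are close neighbours, Ccl1 lies at chr11:82176657-82305690 and Cxcl16 at chr11:70453983-70459984, both on the minus strand. Cxcl9 (chr5:92321347-92328079) and Cxcl10 (chr5:92346638-92348889) sit side by side on the minus strand of chromosome 5, and Xcl1 (chr1:164931644-164935527, minus strand) stands alone. RefSeq promoter sequence (GRCm38.p6) was at hand for 6 genes, and the 250 bases before the annotated start of Cxcl10 and Ccl3 are shown because these genes differed in opposite directions after treatment. Both are written 5′ to 3′ on the minus strand, Cxcl10 from chr5:92348890-92349139 and Ccl3 from chr11:83649379-83649628, with motif matches in capitals.
Cxcl10: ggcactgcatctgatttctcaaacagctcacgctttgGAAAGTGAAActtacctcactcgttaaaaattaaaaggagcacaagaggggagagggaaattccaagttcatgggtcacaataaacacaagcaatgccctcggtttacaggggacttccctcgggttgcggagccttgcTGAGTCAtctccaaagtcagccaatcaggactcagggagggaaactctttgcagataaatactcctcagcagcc
Ccl3: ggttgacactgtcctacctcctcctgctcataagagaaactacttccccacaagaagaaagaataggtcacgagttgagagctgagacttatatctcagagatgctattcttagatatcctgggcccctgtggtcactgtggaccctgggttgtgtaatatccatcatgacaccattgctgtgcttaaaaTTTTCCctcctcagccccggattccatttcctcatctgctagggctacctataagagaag

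The letters searched, on both strands of the 300-base windows, were TTCNNNGAA (STAT dimers), the core of the interferon-stimulated response element (ISRE), TGACGTCA (CRE), TGACTCA (AP-1), an NF-kB site and GGAAAA (NFAT core), with no match shared by 2 of them in the windows shown. Cxcl10 held the ISRE core (reverse strand, first base at -213, found in 3.43% of 32817 promoters) and TGACTCA (reverse strand, at -74, in 5.2%). Ccl3 held a single match, GGAAAA on the reverse strand at -60, which 23.3% of all promoters hold. Ccl1 held GGAAAA at -117 and -87, Cxcl9 GGAAAA at -127 and -48 and TGACTCA at 31 bases after the start, and Ccl9 the NF-kB site at -35 (1.63% of promoters). Neither TTCNNNGAA (8.29%) nor TGACGTCA (1.79%) was found in any of the 6 windows. A match describes letters only. The NF-kB site was searched in a single fixed form, which was found in the Ccl9 window alone. Other forms of this site were not searched in any window. The lower-case letters of Cxcl10 and Ccl3 therefore do not show that these promoters lack NF-kB sites.

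Differences with treatment are described first, from fits that pair no libraries. Over both reporter states, Ccl3 and Ccl5 transcripts rose after anti-PD-L1, by 2.16-fold and 1.99-fold, and Ccl4 stood 1.57-fold higher with an adjusted p just above the threshold. Cxcl10 and Cxcl16 stood lower in all treated groups than in the matching non-treated groups. Xcl1 was not called in any comparison by treatment. The 9 genes together took 0.177 to 0.323% of counted reads, and the plot of CPM by library shows each of them.

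**Figure D1:**
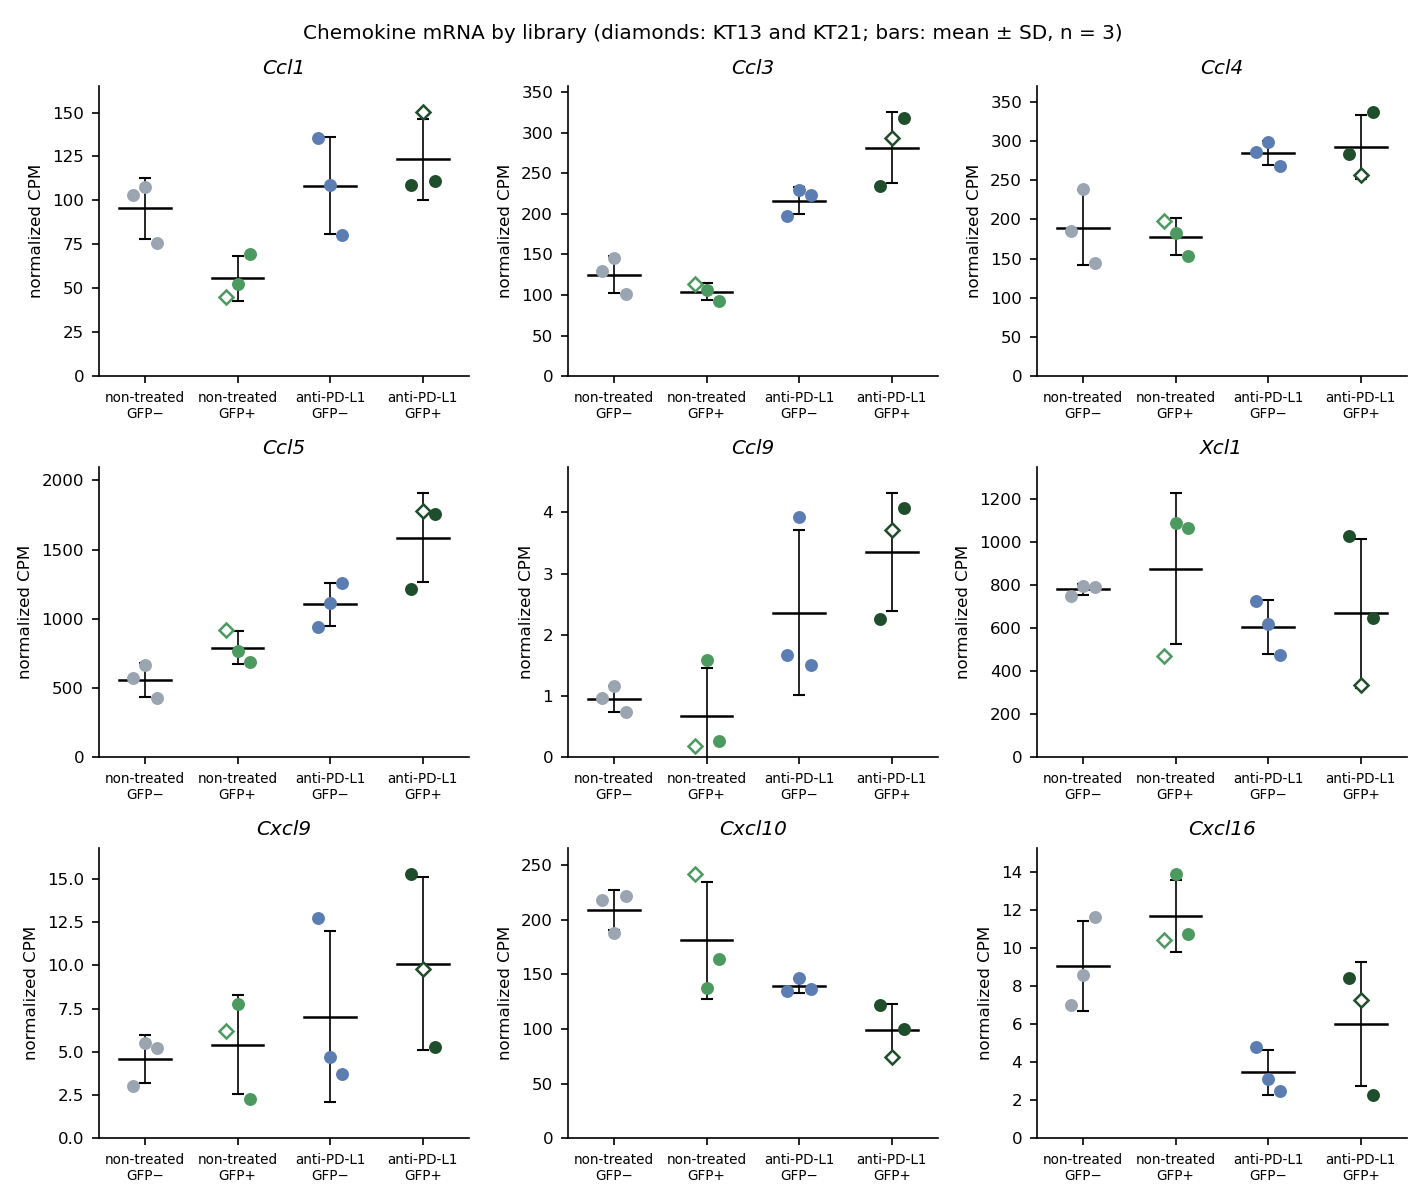
Normalized CPM (linear axes from 0) of each chemokine gene in the 12 libraries, with open diamonds for KT13 and KT21 and black bars for the group mean ± SD (n = 3, cut at 0). Ccl3, Ccl4, Ccl5 and Ccl9 lie higher and Cxcl10 and Cxcl16 lower in treated than in matching non-treated libraries, and the Xcl1 values of KT13 (473 CPM) and KT21 (335 CPM) are the lowest of their groups.

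Ccl3 encodes MIP-1α, a ligand of CCR1. Its level was 129, 145 and 101 CPM in the non-treated GFP- libraries (KT14, KT16, KT18) and 114, 106 and 92.5 CPM in the non-treated GFP+ libraries (KT13, KT15, KT17). After anti-PD-L1 it was 197, 229 and 223 CPM in GFP- cells (KT20, KT22, KT24) and 234, 293 and 318 CPM in GFP+ cells (KT19, KT21, KT23). Every treated library was above every non-treated one, and after treatment every GFP+ library was above every GFP- library. The log2 fold change with treatment was 1.43 ± 0.18 (SE) in the GFP+ state (edgeR quasi-likelihood test, adjusted p = 0.0121), 0.79 ± 0.17 in the GFP- state (adjusted p = 0.249), and averaged over both 1.11 ± 0.12 (adjusted p = 0.00234). With KT13 and KT21 left out, the values were 1.47 (adjusted p = 6.96e-05), 0.79 (adjusted p = 0.00297) and 1.13 (adjusted p = 6.99e-07). The call in GFP+ cells was lost without KT15 and without KT17 (adjusted p of up to 0.176) and in a fit of the GFP+ libraries alone (adjusted p = 0.752), with log2 fold changes of 1.36 or more.

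Ccl4 encodes MIP-1β, an attractant of T cells and monocytes. It stood at 185, 239 and 145 CPM in non-treated GFP- and at 198, 183 and 153 CPM in non-treated GFP+ libraries. After treatment it was 285, 298 and 268 CPM in GFP- and 283, 256 and 336 CPM in GFP+ libraries. The treated values were all above the non-treated ones, and the reporter states overlapped in both conditions. The log2 fold change with treatment was 0.71 ± 0.19 in the GFP+ state (edgeR, adjusted p = 0.312), 0.58 ± 0.19 in the GFP- state (adjusted p = 1), and 0.65 ± 0.13 on average (adjusted p = 0.0555). Without KT13 and KT21 it was 0.88 in GFP+ (adjusted p = 0.00969), 0.58 in GFP- (adjusted p = 0.0801) and 0.73 on average (adjusted p = 2.99e-04).

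Ccl5 encodes RANTES, which binds CCR1 and CCR3 and is stored and made late by effector and memory CD8+ T cells. It stood at 576, 668 and 426 CPM in non-treated GFP- and at 923, 766 and 689 CPM in non-treated GFP+ libraries. After treatment it was 944, 1116 and 1257 CPM in GFP- and 1217, 1782 and 1761 CPM in GFP+ libraries. The 4 groups thus formed steps in which only the treated GFP- and treated GFP+ groups overlapped, at 1217 to 1257 CPM. Its log2 fold change with treatment was 1.001 ± 0.20 in GFP+ (edgeR, adjusted p = 0.0946), 0.99 ± 0.20 in GFP- (adjusted p = 0.135) and 0.996 ± 0.14 on average (adjusted p = 0.00411). In the 10 other libraries these were 1.03 (adjusted p = 0.00279), 0.99 (adjusted p = 3.1e-04) and 1.01 (adjusted p = 4.04e-06), so the call in each reporter state depended on those libraries while the size did not.

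Ccl1 encodes the ligand of CCR8, a receptor known on regulatory T cells. It was at 103, 108 and 75.8 CPM in non-treated GFP- and at 44.9, 52.6 and 69.7 CPM in non-treated GFP+ libraries, the lowest group. After treatment it was 136, 109 and 80.4 CPM in GFP- and 109, 150 and 111 CPM in GFP+ libraries. In GFP+ cells the treated and non-treated libraries did not overlap, and in GFP- cells they did. The log2 fold change was 1.14 ± 0.23 in GFP+ (edgeR, adjusted p = 0.0946; 0.85 and adjusted p = 0.0595 without KT13 and KT21) and 0.18 ± 0.23 in GFP- (adjusted p = 1; 0.18 and adjusted p = 0.917). Averaged over reporter states it was 0.66 (adjusted p = 0.141), and 0.51 without those libraries (adjusted p = 0.0474).

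Ccl9 encodes MIP-1γ, a mouse CCR1 ligand known mainly from myeloid cells, and was near the limit of detection. It had 12 to 23 counts per library in non-treated GFP-, 2 to 25 in non-treated GFP+, 20 to 55 in treated GFP- and 35 to 55 in treated GFP+ cells. In CPM these were 0.735 to 1.17, 0.178 to 1.58, 1.51 to 3.92 and 2.25 to 4.07. The log2 fold change with treatment was 2.26 (95% interval 0.62 to 3.91) in GFP+ (edgeR, adjusted p = 0.493; without KT13 and KT21 1.76, adjusted p = 0.602) and 1.298 (-0.29 to 2.88) in GFP- cells (adjusted p = 1; 1.299, adjusted p = 0.763). The value in GFP+ was 3.84 without KT15, the highest with 1 library left out, and that in GFP- was 0.72 without KT22, the lowest.

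Cxcl10 encodes IP-10, a CXCR3 ligand. It was at 218, 188 and 222 CPM in non-treated GFP- and at 241, 138 and 164 CPM in non-treated GFP+ libraries. After treatment it was 135, 146 and 137 CPM in GFP- and 122, 74.2 and 100 CPM in GFP+ libraries. Within each reporter state all treated libraries lay below all non-treated ones, and after treatment GFP+ lay below GFP-. KT13 was the highest and KT21 the lowest of the 12 libraries. The log2 fold change with treatment was -0.87 ± 0.22 in GFP+ (edgeR, adjusted p = 0.236) and -0.58 ± 0.21 in GFP- (adjusted p = 1), and -0.73 ± 0.15 on average (adjusted p = 0.0635). Without KT13 and KT21 the difference in GFP+ was -0.44 (adjusted p = 0.27), in GFP- -0.58 (adjusted p = 0.0153) and on average -0.51 (adjusted p = 0.00262).

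Cxcl9 encodes MIG, the other interferon-induced CXCR3 ligand measured here. It had 34 to 237 counts per library. Its levels were 3.01, 5.53 and 5.21 CPM in non-treated GFP-, 6.23, 7.79 and 2.26 in non-treated GFP+, 12.7, 4.70 and 3.70 in treated GFP- and 15.3, 9.78 and 5.26 in treated GFP+ libraries. All 4 groups overlapped with their neighbours. The log2 difference with treatment was 0.90 (-0.26 to 2.06) in GFP+ and 0.62 (-0.54 to 1.78) in GFP- cells (edgeR, adjusted p = 0.857 and 1; without KT13 and KT21 1.03 and 0.62, adjusted p = 0.664 and 0.876). The value in GFP+ was 0.47 without KT19 and 0.53 without KT17, and that in GFP- was -0.12 without KT20 and 0.39 without KT14.

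Cxcl16 encodes the membrane-bound ligand of CXCR6, known above all from macrophages and dendritic cells. It was at 6.98, 8.58 and 11.6 CPM in non-treated GFP- and at 10.4, 13.9 and 10.8 CPM in non-treated GFP+ libraries. After treatment it was 4.77, 3.14 and 2.49 CPM in GFP- and 8.44, 7.28 and 2.30 CPM in GFP+ libraries. Within each reporter state the treated libraries lay below the non-treated ones. The log2 fold change was -0.96 ± 0.41 in GFP+ (edgeR, adjusted p = 0.709) and -1.38 ± 0.42 in GFP- (adjusted p = 1), and -1.17 on average (adjusted p = 0.166). With KT13 and KT21 left out, these were -1.19 (adjusted p = 0.409), -1.38 (adjusted p = 0.197) and -1.28 (adjusted p = 0.0258). The value in GFP+ was -0.56 without KT23, the library with the lowest Cxcl16 level.

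The macrophage markers moved with Cxcl16. Averaged over reporter states, 12 of the 13 macrophage markers kept were lower after treatment, with a median log2 fold change of -0.93 against -0.01 over all genes, and C1qa (-1.001, edgeR adjusted p = 0.0317) and Lyz2 (-1.50, adjusted p = 0.0461) passed the test. Without KT13 and KT21 all 13 were lower and C1qa, Lyz2, Apoe and Csf1r passed. Of 11 dendritic cell markers 8 were kept, and 6 of those were lower with all libraries (0 called, 3 at an unadjusted p under 0.05). Without KT13 and KT21, 7 of the 8 were lower, H2-Ab1 passed, and 5 were at an unadjusted p under 0.05. The gene most like Cxcl16 across the 12 libraries was C1qa, a complement gene of macrophages (Pearson r of log2(CPM + 0.5) = 0.967), followed by Csf1r, the macrophage growth factor receptor (r = 0.945); these were singled out after their values were seen, and the libraries they share also share treatment. Zmynd15, on the opposite strand and sharing exonic bases with Cxcl16, had 6 to 83 counts per library. In GFP- libraries it lay at 1.08 to 4.21 CPM without and 0.453 to 2.10 CPM with treatment, ranges that overlapped. In GFP+ libraries it lay at 2.32 to 4.54 CPM without and 1.70 to 2.05 CPM with treatment. These GFP+ ranges did not overlap, and the direction was that of Cxcl16. The part of macrophages, of dendritic cells and of Zmynd15 reads in the result for Cxcl16, and of macrophages in those for Cxcl9, Cxcl10 and Ccl9, was not tested. Ccl1, Ccl3, Ccl4, Ccl5, Ccl9 and Cxcl9 stood higher with treatment on average, where 12 of the 13 macrophage markers stood lower. The part of macrophages in the results for Ccl1, Ccl3, Ccl4 and Ccl5 was not tested either.

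**Figure D2:**
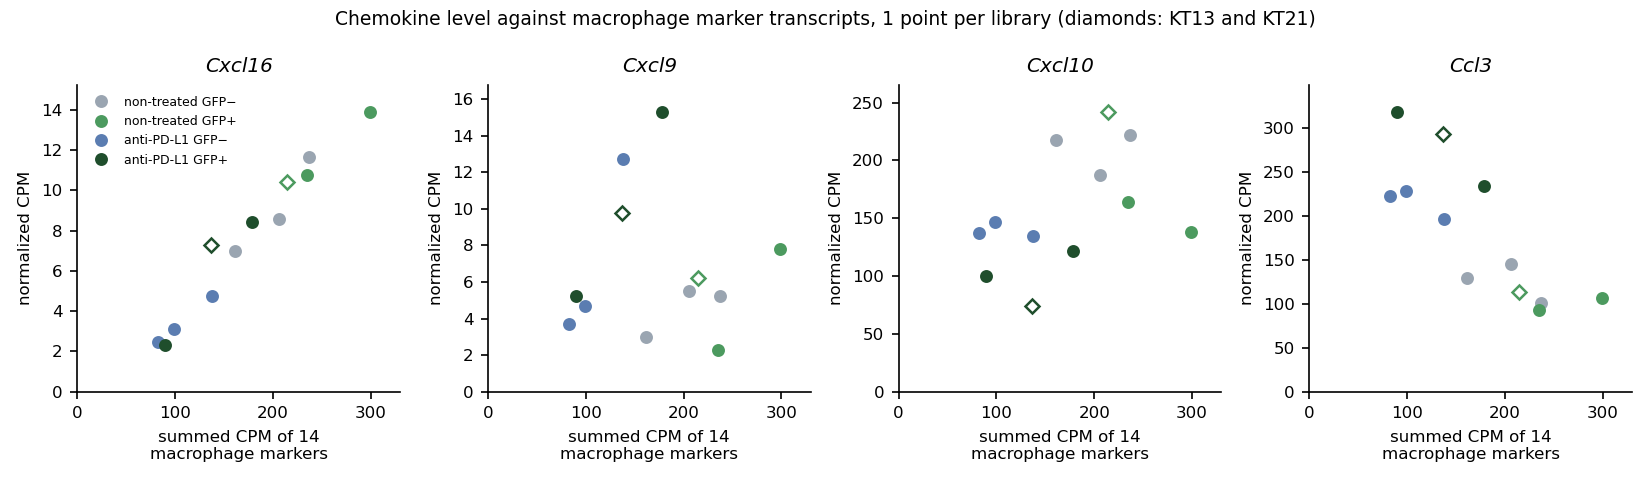
Normalized CPM of 4 chemokine genes against the summed CPM of 14 macrophage marker genes, 1 point per library, with linear axes from 0 and open diamonds for KT13 and KT21. Cxcl16 runs close to the macrophage sum over its whole range, Cxcl9 and Cxcl10 scatter, and Ccl3 is highest in libraries with a low sum.

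Xcl1 encodes lymphotactin, which CD8+ T and NK cells make. It was at 752, 799 and 793 CPM in non-treated GFP- and at 473, 1091 and 1069 CPM in non-treated GFP+ libraries. After treatment it was 728, 618 and 478 CPM in GFP- and 1028, 335 and 649 CPM in GFP+ libraries. In GFP- cells every treated library was below every non-treated one, and in GFP+ cells KT13 and KT21 were far below the rest. The log2 difference with treatment was -0.36 (-1.11 to 0.39) in GFP- and -0.39 (-1.14 to 0.36) in GFP+ cells (edgeR, adjusted p = 1 and 0.943). Leaving out KT13 and KT21, these were -0.36 (-0.65 to -0.07; adjusted p = 0.55) and -0.36 (-0.71 to -0.01; adjusted p = 0.573). With single libraries left out the value in GFP+ ranged from -0.83 without KT19 to -0.06 without KT21, and was -0.69 without KT13, -0.20 without KT15 and -0.22 without KT17. In GFP- it was -0.21 without KT24. Gm20743, which shares exonic bases with Xcl1 on the other strand, had 0 to 8 counts, and Art3 shares bases with Cxcl10 likewise, at 0 to 10 counts.

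Counted over the 9 genes, 1 gene (Ccl3) rose with treatment in GFP+ cells with all libraries, where 0.0141% of all genes were called. The median log2 fold change of the 9 genes was 0.90 in GFP+ cells, 0.58 in GFP- cells and 0.66 on average, against -0.01 over all genes in each. The 9 were chosen with earlier results of these data known, so these medians only describe them. For the 12 other chemokine genes that passed the filter, the medians were 0.10, 0.22 and 0.15 in the same order. In GFP- cells edgeR called 0 of the 9 (5 at an unadjusted p under 0.05), and also 0% of all genes (487 genes at an unadjusted p under 0.05). DESeq2 and limma voom with quality weights each called 2 of the 9, and the share of all genes they called was not counted. Averaged over reporter states 2 rose (Ccl3 and Ccl5), with 0.395% of all genes called in either direction. Without KT13 and KT21 the counts were 3 higher in GFP+ cells (Ccl3, Ccl4 and Ccl5, where 0.563% of genes were called), 2 higher and 1 lower in GFP- cells (Ccl3 and Ccl5, and Cxcl10; 0.373%), and 4 higher and 2 lower on average (Ccl1, Ccl3, Ccl4 and Ccl5, and Cxcl10 and Cxcl16; 1.36%). By library, 7 of the 9 did not overlap between treated and non-treated GFP+ cells and 7 did not in GFP- cells, where 10.3% and 12.3% of all genes did not overlap. The set in GFP+ was Ccl1, Ccl3, Ccl4, Ccl5 and Ccl9 higher and Cxcl10 and Cxcl16 lower, and in GFP- Xcl1 (lower) took the place of Ccl1. The 6 T cell markers moved the same way as Ccl3, Ccl4 and Ccl5, and all 6 stood higher after treatment on average (median log2 fold change 0.27). They summed to 3657 to 3892 CPM before and 4199 to 4400 after treatment in GFP- libraries. In GFP+ libraries these sums were 3022 to 3726 and 3732 to 5091 CPM. With all libraries 0 of the 6 were called on average. Without KT13 and KT21, Cd3g and Cd8a were called higher on average (6 at an unadjusted p under 0.05), and Cd8a also in GFP+ cells. The part of these markers in the result was not tested. These comparisons share libraries with those by reporter state below.

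**Figure D3:**
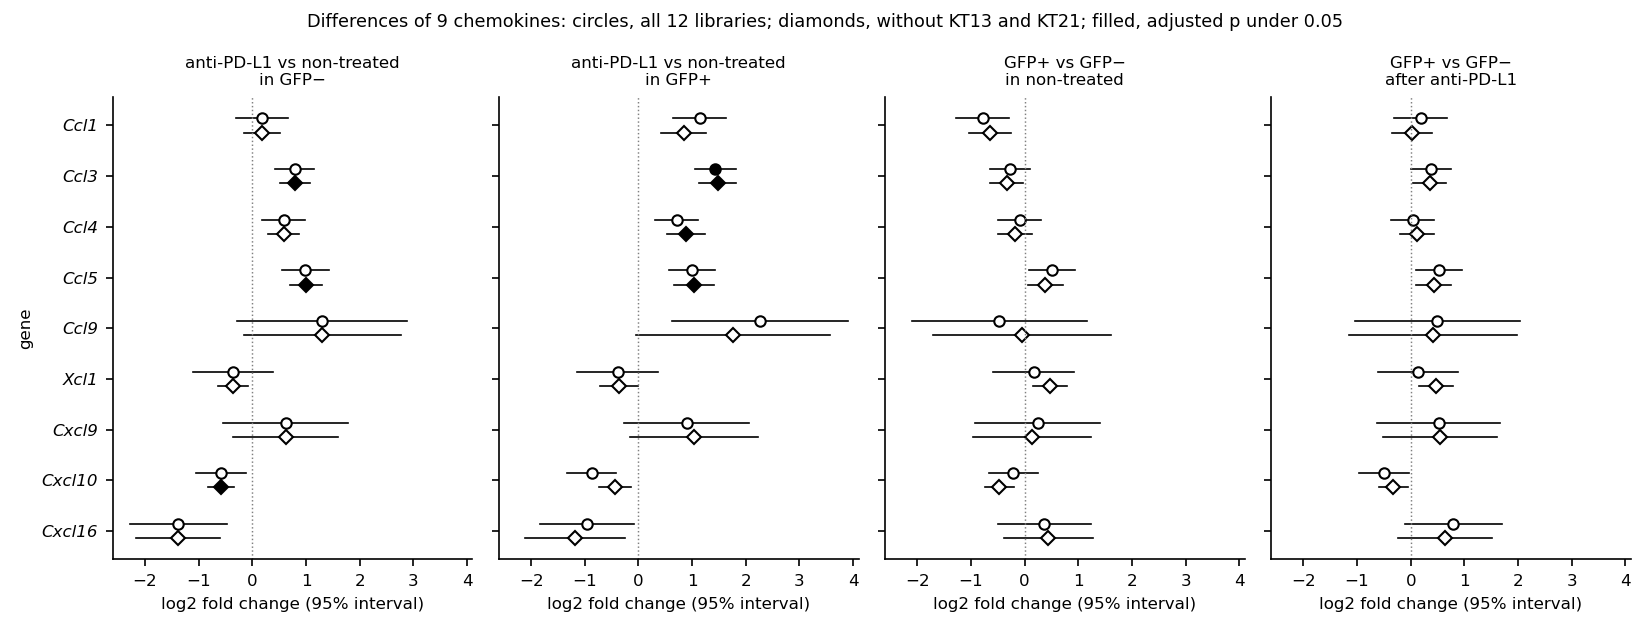
Log2 fold changes with 95% intervals (edgeR) of the 9 genes in the 4 comparisons of 2 groups, with circles for all 12 libraries, diamonds for the fit without KT13 and KT21, and filled symbols for adjusted p under 0.05. Ccl3, Ccl4 and Ccl5 lie to the right and Cxcl10 and Cxcl16 to the left of 0 in both treatment panels, and no symbol is filled in the reporter panels.

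The reporter states were compared next. Ccl5 stood higher in GFP+ cells in both conditions, with log2 fold changes of 0.51 ± 0.20 before and 0.52 ± 0.20 after treatment (edgeR, adjusted p = 0.765 and 0.993). Averaged over treatment this was 0.52 ± 0.14 (adjusted p = 0.239), and 0.41 without KT13 and KT21 (adjusted p = 0.0932), so it did not pass the test in either set, in fits that pair no libraries. Ccl1 stood lower in non-treated GFP+ cells, at -0.78 ± 0.23 (adjusted p = 0.562; -0.65 and adjusted p = 0.189 without KT13 and KT21), and after treatment the difference was 0.19 (-0.30 to 0.67; adjusted p = 0.993).

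Cxcl10 was lower and Xcl1 higher in GFP+ cells once KT13 and KT21 were left out. Averaged over treatment, Cxcl10 differed by -0.35 ± 0.15 with all libraries (edgeR, adjusted p = 0.574) and by -0.40 ± 0.09 without those libraries (adjusted p = 0.0285). Xcl1 differed by 0.15 ± 0.25 with all libraries (adjusted p = 0.899) and by 0.46 ± 0.11 without them (adjusted p = 0.0324). The GFP+ libraries left were at 1091, 1069, 1028 and 649 CPM against 478 to 799 in GFP-. Of the 4 NK cell markers, 3 were above 0 and 1 below 0 in GFP+ cells on average with all libraries, and 4 were above 0 without KT13 and KT21. Fcer1g and Klrb1c were called higher in both sets. Klre1 overlapped, at 92.9 to 189 CPM in GFP- and 42.0 to 189 CPM in GFP+ libraries. The 4 NK markers summed to 184 to 273 CPM in GFP- and 246 to 349 CPM in GFP+ libraries, and their part in the result for Xcl1 was not tested. In the fit without KT13 and KT21, Cd8a (-0.30, edgeR adjusted p = 0.0333) and Cd8b1 (-0.54, adjusted p = 0.00209) were also lower in GFP+ cells, and all 6 T cell markers were below 0 (median -0.13; 3 of 6 below 0 with all libraries). In the same fit all 13 macrophage and all 8 dendritic cell markers kept were above 0, with medians of 0.37 and 0.33, and 0 of these were called (2 and 1 at an unadjusted p under 0.05). The part of these cells in the differences by reporter state was not tested.

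Ccl3 and Ccl4 were not called by reporter state, at 0.06 (-0.20 to 0.32) and -0.03 (-0.31 to 0.26) averaged over treatment (edgeR, adjusted p = 0.927 and 0.976). For Ccl3 this average was taken over opposite signs, -0.27 (-0.64 to 0.10) in non-treated cells and 0.38 (0.01 to 0.75) after treatment (adjusted p = 0.893 and 0.993). For Ccl4 these were -0.09 (-0.49 to 0.31) and 0.04 (-0.36 to 0.44; adjusted p = 0.971 and 0.997).

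Counted over the 9 genes by reporter state, edgeR called 0 of 9 in non-treated cells (2 at an unadjusted p under 0.05), 0 after treatment (3 unadjusted) and 0 on average (2 unadjusted), and DESeq2 and limma voom also called 0 in each. Over all genes 0.00706%, 0.0282% and 0.31% were called. In the fit of 10 libraries the counts were 0, 0 and 2 of the 9 (5, 4 and 4 unadjusted), with 0.339%, 0.17% and 1.08% of genes called. By library, 2 of the 9 did not overlap in non-treated cells (Ccl5 higher, Ccl1 lower) and 2 after treatment (Ccl3 higher, Cxcl10 lower), against 12.8% and 10.6% of all genes, which for 9 genes is near the background.

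Whether the effect of treatment differed between the reporter states was tested as an interaction. No gene of the 9 was called, and 0% of all genes were called with or without KT13 and KT21 (295 and 632 genes at an unadjusted p under 0.05; DESeq2 and limma voom with quality weights called 0 of the 9). Ccl1 (log2 difference of effects 0.96 ± 0.32, unadjusted p = 0.00989) and Ccl3 (0.65 ± 0.24, unadjusted p = 0.0189) had the smallest p-values of the 9, with an edgeR adjusted p = 1 for each. Without KT13 and KT21 these were 0.67 (unadjusted p = 0.0172) and 0.69 (unadjusted p = 0.00377), again with adjusted p = 1. For Ccl5 the interaction was 0.01 (-0.60 to 0.62). The larger values of Ccl1 and Ccl3 in GFP+ cells are therefore not shown to differ from those in GFP- cells.

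Ccl3 and Ccl4 are neighbouring, related genes usually described together, and their ratio within a library does not depend on its depth. The ratio of Ccl3 to Ccl4 counts was 0.608 to 0.701 in non-treated GFP-, 0.575 to 0.605 in non-treated GFP+, 0.690 to 0.831 in treated GFP- and 0.826 to 1.14 in treated GFP+ libraries. The treated GFP+ libraries were all above the non-treated ones, and the GFP- groups overlapped. The log2 ratio was 0.45 higher after treatment (two-sided exact permutation test of treatment labels within reporter state, 400 relabellings, p = 0.015) and 0.38 higher without KT13 and KT21 (120 relabellings, exact p = 0.05). Between reporter states it differed by 0.08 averaged over treatment (exact permutation p = 0.55), an average over opposite signs. The mean log2 ratio was -0.769 in GFP+ and -0.583 in GFP- libraries of non-treated mice. After treatment it was -0.055 in GFP+ and -0.395 in GFP- libraries. This ratio was chosen after its values were seen, and how reads shared by these similar genes were counted is not given in the sources used here.

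**Figure D4:**
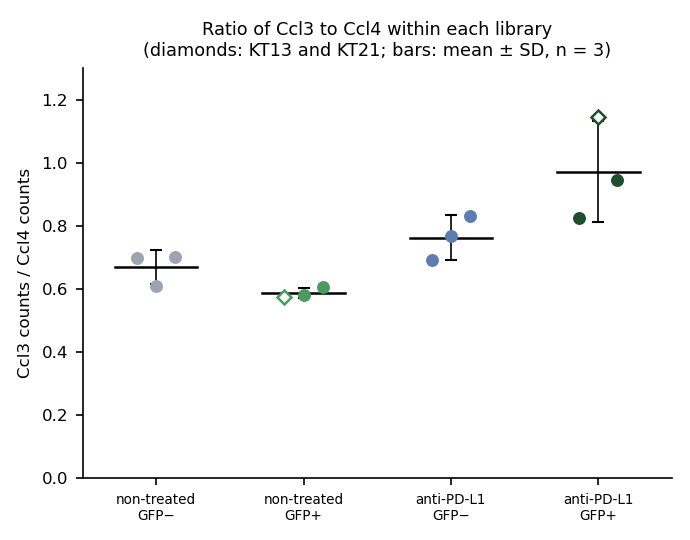
Ratio of Ccl3 to Ccl4 counts in each library (linear axis from 0), with open diamonds for KT13 and KT21 and black bars for the mean ± SD (n = 3). Non-treated libraries lie at 0.575 to 0.701 and treated libraries at 0.690 to 1.14.

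Receptors of these ligands were measured in the same cells. Xcr1 did not pass the filter, with 0 to 4 counts per library. Of Cxcr6, Cxcr3, Ccr1, Ccr3 and Ccr8, edgeR called 0 with all 12 libraries in any of the 7 comparisons, with 1 at an unadjusted p under 0.05 for treatment (Cxcr6) and 2 for reporter state (Cxcr6 and Ccr1) on average. Cxcr6, the receptor of CXCL16 and a marker of tissue-resident T cells, was at 248 to 387 CPM in non-treated GFP-, 166 to 225 in non-treated GFP+, 391 to 430 in treated GFP- and 177 to 382 in treated GFP+ libraries, where KT21 was the lowest. Its log2 difference with treatment was 0.47 on average (edgeR, adjusted p = 0.467) and 0.54 without KT13 and KT21 (adjusted p = 0.00406).

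Of these fits, Cxcr6 rose with treatment in the one without KT13 and KT21, in which Ccl3, Ccl4 and Ccl5 also rose and Cxcl16 fell. By reporter state the log2 difference of Cxcr6 was -0.57 in GFP+ against GFP- cells averaged over treatment (edgeR, adjusted p = 0.333; -0.38 and adjusted p = 0.0866 without KT13 and KT21), which did not pass the test in either set. Cxcr3, the receptor of CXCL9 and CXCL10, lay between 96.9 and 127 CPM in all libraries, and its log2 difference with treatment was 0.04 (-0.17 to 0.24; adjusted p = 0.996) with all libraries and -0.03 (-0.21 to 0.14; adjusted p = 0.935) without KT13 and KT21. Ccr1, Ccr3 and Ccr8 had 0 to 106, 0 to 48 and 0 to 15 counts per library.

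**Figure D5:**
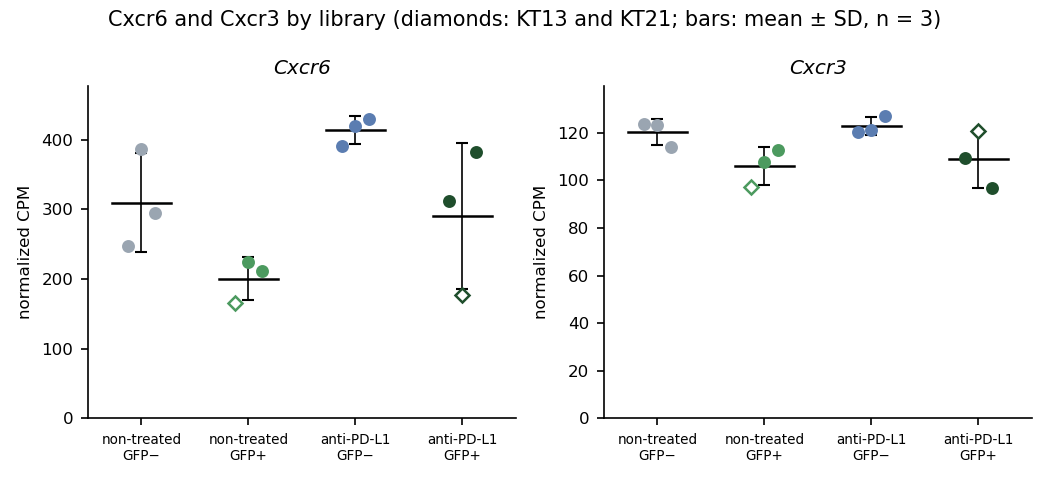
Normalized CPM (linear axes from 0) of Cxcr6 and Cxcr3 in the 12 libraries, with open diamonds for KT13 and KT21 and black bars for the mean ± SD (n = 3). KT21 has the lowest Cxcr6 of the treated libraries, and Cxcr3 lies between 96.9 and 127 CPM throughout.

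Of 20 cytokine, transcription factor, mRNA decay and sheddase genes linked to chemokine expression, all passed the filter. Averaged over reporter states, Prdm1, the gene of the effector regulator Blimp-1, rose (log2 fold change 1.05, edgeR adjusted p = 0.0485) and Klf2, a quiescence and trafficking factor, fell (-0.96, adjusted p = 0.0239). Without KT13 and KT21 these were 1.04 (adjusted p = 8.79e-04) and -0.81 (adjusted p = 8.29e-04), and Ifng, the cytokine that induces Cxcl9 and Cxcl10, rose by 0.47 (adjusted p = 0.00312) where Cxcl10 fell. Ifng was at 380 to 501 CPM in non-treated GFP-, 291 to 410 in non-treated GFP+, 470 to 525 in treated GFP- and 464 to 507 in treated GFP+ libraries. Irf1, a gene of the interferon response, was not called with treatment (-0.16, adjusted p = 0.943). By reporter state, 1 gene was called, Tnf, which was lower in GFP+ cells without KT13 and KT21 (-0.72, adjusted p = 0.00342; -0.55 and adjusted p = 0.311 with all libraries). Klf2 and Prdm1 passed in the same averaged comparison as Ccl3 and Ccl5.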

How the data were processed

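Total RNA of sorted CD8+ T cells was made into QuantSeq 3′ libraries (12, 3 per group). The deposited values are raw counts per Ensembl gene, which the authors made with Cutadapt, HISAT2 (mm10) and featureCounts; the strand setting and the treatment of multiply mapped reads are not given in the sources used here. Of 52636 identifiers, 52403 matched GENCODE vM21, which gave the symbols.

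Counts were filtered with filterByExpr, normalized by TMM and tested with edgeR 4.0.16 quasi-likelihood tests in R 4.3.3 in 1 fit of all 4 groups, with Benjamini-Hochberg adjustment over all genes and a threshold of 0.05. CPM are TMM-normalized. DESeq2 1.42.0 and limma 3.58.1 served as alternatives, as did other filters and normalizations, the compared groups alone, leaving out each library, and leaving out KT13 and KT21. The script was tested on simulated data, where DESeq2 was held to a looser limit on false calls than edgeR and limma voom. Intervals are 95% intervals of the fit.

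Named genes were the 9 chemokine genes; called genes of the receptor and regulator lists, some of which are not reported here; and, for the 4 chemokine genes with the most counts, the 3 genes with the highest Pearson r of log2(CPM + 0.5). The members and gene lists were chosen with earlier results of these data known. Libraries of 1 group agreed less closely than sampling noise would give, so none was treated as a duplicate. The ratio of Ccl3 to Ccl4 was added after the data were seen. The p-values measure the spread between libraries, each of 3 pooled mice. No source says whether GFP+ and GFP- libraries share pools. Tests averaged over reporter states and the exact permutation tests took the libraries as independent. Shared pools would leave fewer independent units than libraries in the tests of treatment. The labels give no batch.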

Additional observations from a re-analysis of the deposited data

How the results depend on the processing

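The number of the 9 genes called depended on the method. For treatment averaged over reporter states (2 with all libraries) it was 7 with DESeq2, 5 with limma voom and sample quality weights, 4 with at least 10 counts in every library, 6 with no filter beyond 1 count and 6 without KT13 and KT21. For treatment in GFP+ cells (1) these alternatives gave 4 with DESeq2, 3 with voom, 4 with no filter, 3 without KT13 and KT21 and 0 in a fit of the groups compared alone, and for GFP- cells (0) they gave 2, 2, 2, 3 and 3. For reporter state they gave 1 in non-treated cells with no filter, and averaged over treatment 1 with no filter and 2 without KT13 and KT21. Leaving out 1 library at a time gave 2 to 4 for treatment on average, 0 to 1 in GFP+ and 0 to 1 in GFP- cells, and 0 to 0 in the others. The share of all genes called was counted only for the edgeR fits with all libraries and without KT13 and KT21. The other counts therefore have no background beside them, and a larger count can come from a less strict method. Ccl3 and Ccl5 were called on average in all 7 alternatives and with each of the 12 libraries left out. The log2 ratio of Ccl3 to Ccl4 was 0.38 without KT13 and KT21 (exact permutation p = 0.05). The cause of these differences was not tested.

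Directions turned for uncalled values. Cxcl9 by reporter state in non-treated cells was -0.30 under voom, Cxcl10 in the interaction was 0.14 without KT13 and KT21, Ccl4 by reporter state on average was 0.0029 under upper-quartile normalization, and Ccl9 there was -0.24 under voom. With 1 library left out, differences by reporter state in non-treated cells ranged from -0.25 to 0.10 for Ccl4, -0.0186 to 0.47 for Xcl1 and -0.12 to 0.61 for Cxcl9, and after treatment from -0.0512 to 0.12 for Ccl4 and -0.31 to 0.46 for Xcl1. Treatment in GFP- cells ranged from -0.013 to 0.36 for Ccl1 and -0.12 to 0.93 for Cxcl9. The interaction ranged from -0.0463 to 0.29 for Ccl4, -0.12 to 0.17 for Ccl5, -0.47 to 0.30 for Xcl1 and -0.15 to 1.03 for Cxcl9, and reporter state on average from -0.0086 to 0.12 for Ccl3, -0.11 to 0.0766 for Ccl4, -0.78 to 0.31 for Ccl9 and -0.07 to 0.31 for Xcl1.

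Ccl9 had no value with at least 10 counts in every library. No paired analysis was made, because the labels give no shared replicate numbers. The library numbers alternate between GFP+ and GFP-, but no source says that neighbouring numbers share tumors, so they were not used as pairs.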

Other observations

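Of 29 other chemokine genes, 12 passed the filter with all libraries and 13 without KT13 and KT21, and edgeR called 0 in any of the 7 comparisons in either set (1 and 2 of the 12, and 1 and 1 of the 13, at an unadjusted p under 0.05 for treatment and reporter state on average). The 12 stood at low levels. Ccl27a, a skin T cell attractant, stood highest of those named here in GFP+ libraries, at 5.01 ± 2.12 CPM (SD, n = 3) before and 5.00 ± 1.20 after treatment, against 2.58 ± 1.06 and 2.70 ± 0.81 in GFP-, a log2 difference of 0.92 averaged over treatment (edgeR, adjusted p = 0.437). It and Cxcl2, a neutrophil attractant with 2.48 ± 1.23 CPM in non-treated and 0.814 ± 0.628 CPM in treated GFP- libraries, were chosen after their values were seen.

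Genes whose log2(CPM + 0.5) ran most like each of the 4 chemokine genes with the most counts were found over the 12 libraries, which share treatment, reporter state and depth. For Ccl3 these were Plek (Pearson r = 0.949), Prf1, the perforin gene (0.931), and Havcr2, the gene of the exhaustion receptor TIM-3 (0.929). For Ccl4 they were Havcr2 (0.949), Chst11 (0.930) and Mxi1 (0.918). For Ccl5 they were Ybx3 (0.916), Il1r2 (0.899) and Tnip3 (0.887). For Xcl1 they were Zfp937 (0.929), Rnf227 (0.916) and Sirpa (0.913). Havcr2 appears for both Ccl3 and Ccl4.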
